A study of Mus musculus with 42 samples.

Results

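The comparison described here is that of acute corticosterone (CORT), the main glucocorticoid of mice, with vehicle in mouse liver. It compares 12 of the 42 libraries of the series, chosen by their titles in the acute count table: 6 CORT mice (L2A, L8A, L14A, L20A, L26A and L32A) and 6 vehicle mice (L1A, L7A, L13A, L19A, L25A and L31A). All 42 mice were male C57B6/J mice without a stated transgene or deletion, each given as a sample of its own, and messenger RNA was measured in the snap-frozen liver. The acute arm also held 6 mice on CORT plus the antiandrogen drug enzalutamide (CORT+ENZA) and 6 on enzalutamide alone (ENZA). All 24 acute libraries were fitted together, so the spread behind each p-value was also estimated from these other groups. The chronic arm, whose RNA was extracted with another kit, held 6 mice on CORT, 6 on CORT+ENZA and 6 on vehicle, and its CORT and vehicle groups are used here. The labels name no age, dose, route or length of treatment beyond acute and chronic. The series examined how glucocorticoid and androgen signalling interact in the liver. The question here is which genes the liver changes early after CORT besides its best-known glucocorticoid targets.

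Corticosterone acts through the glucocorticoid receptor, a nuclear receptor that waits in the cytoplasm with its chaperones, moves to the nucleus when bound and attaches to palindromic DNA elements or to other transcription factors. It raises some genes within a short time and represses others. In liver it is known for its part in fasting and stress, where it promotes glucose output and lipid handling and restrains inflammation. The tissue label was checked with markers: the 12 markers of hepatocytes, the main cell of the liver, were all detected, with a summed level of 1.195e+05 to 1.543e+05 CPM in CORT and 1.182e+05 to 1.675e+05 CPM in vehicle livers (CPM is the count of a gene relative to the total of its library, scaled by TMM factors).

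The sequences below are the promoters of 3 genes that rose with CORT and hold the core of the palindrome that the receptor binds. They are shown because this core was found in several genes called higher and is rare among promoters. The core was added as a motif after the data had been seen, so these matches are no separate evidence. They were taken from the RefSeq promoter table of build GRCm38.p6, which covers 250 bases before and 50 after a start site, and are written 5′ to 3′ on the strand of the gene, with the palindrome in capitals.
Fam107a, chr14:8309730-8310029 (minus strand): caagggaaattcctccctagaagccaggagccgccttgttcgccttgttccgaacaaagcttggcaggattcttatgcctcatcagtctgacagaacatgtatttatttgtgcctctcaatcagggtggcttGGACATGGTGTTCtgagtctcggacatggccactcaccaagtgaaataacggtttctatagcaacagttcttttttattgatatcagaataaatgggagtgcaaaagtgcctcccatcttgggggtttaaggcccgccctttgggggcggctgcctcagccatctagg
Map3k6, chr4:133240568-133240867 (plus strand): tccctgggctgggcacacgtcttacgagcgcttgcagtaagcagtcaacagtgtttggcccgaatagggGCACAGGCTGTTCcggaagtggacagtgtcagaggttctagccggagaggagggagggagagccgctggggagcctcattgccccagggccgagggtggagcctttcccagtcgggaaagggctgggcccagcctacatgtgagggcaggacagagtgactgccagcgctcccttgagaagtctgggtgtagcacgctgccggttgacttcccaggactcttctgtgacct
Serpina3c, chr12:104153823-104154122 (minus strand): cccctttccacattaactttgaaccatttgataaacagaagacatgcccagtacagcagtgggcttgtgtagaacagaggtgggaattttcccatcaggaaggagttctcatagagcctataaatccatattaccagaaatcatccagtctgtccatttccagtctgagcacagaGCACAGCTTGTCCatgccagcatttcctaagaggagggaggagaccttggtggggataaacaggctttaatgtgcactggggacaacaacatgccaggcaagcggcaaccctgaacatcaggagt
Fam107a (also called DRR1) encodes an actin-associated protein, Map3k6 a kinase that starts a MAP kinase cascade, and Serpina3c a serine protease inhibitor. Counted from the start site, the palindrome begins at -118 in the Fam107a window, at -181 in Map3k6 and at -75 in Serpina3c. The words found were GGACATGGTGTTC, GCACAGGCTGTTC and GCACAGCTTGTCC, each a match to the core GNACANNNTGTNC, in which N is any base.

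At least 1 promoter window was found for 105 of the 130 genes called higher with CORT, 66 of the 92 called lower and 10304 of all tested genes by symbol. A gene may have several windows and was counted if any of them held the motif. The core palindrome, which reads the same on both strands, was found for 4 of the 105 genes called higher (3.81%). It was found for none of the 66 genes called lower and for 0.378% of all tested genes with a window. The other gene was Gm16573. The word AGAACA, 1 arm of the palindrome, searched on both strands, was found for 20% of the genes called higher, 24.2% of those called lower and 15.3% of all tested genes. The full palindrome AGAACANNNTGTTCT, which contains both shorter words, was in no window of either called group and in 0.0194% of all tested genes. A match is a description of the letters and shows no binding, and the element may also lie outside the window. Because the core was added after the data had been seen, its shares are no test of enrichment.

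Libraries of the 12 mice held 18905898 to 19903967 gene counts in CORT and 19111290 to 20458753 in vehicle livers, and 19212 to 20773 genes were detected in CORT and 19264 to 20153 in vehicle livers. One library stood apart. Vehicle mouse L19A had the lowest score of the acute arm on the second principal component (-45.24, with 15% of the variance), followed by CORT+ENZA mouse L36A (-34.81), while the other acute mice lay between -18.28 and 21.48. Its levels correlated with those of the other vehicle mice at 0.9707 to 0.9768, against 0.9841 to 0.9929 between those other mice. The summed level of the 10 bile duct markers was 164.7 CPM in L19A, above the medians of 67.4 CPM in CORT and 65.4 CPM in vehicle livers. Its summed level of the 10 genes of the monocyte list, 905.4 CPM, was the lowest of the 12. That list includes the fibronectin gene Fn1, and the share of each gene in the sum was not examined, so the sum is no measure of monocytes. The part these markers play in the results was not tested. Each result is given as fitted on all libraries, and those that changed without L19A are named as such.

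A small part of the tested genes was called changed with CORT in the acute arm. Of 13733 genes tested, 222 were called at an adjusted p under 0.05 (1.62%), 130 of them higher (0.947%) and 92 lower (0.67%) in CORT. The number depended on the method: a fit of only the 12 libraries called 96 genes, and the program DESeq2 called 432. Changes were mostly modest: the median log2 fold change was 0.6269 among the genes called higher and -0.6016 among those called lower. A change of at least 1 on the log2 scale was reached by 35 of the genes called higher and 17 of those called lower. Of the 222 genes, 9 were on the list of best-known glucocorticoid targets and 213 were not, and 189 were on none of the 38 gene lists. Most tested genes were on no list either: the lists held 728 of the 13733 genes tested and 33 of the 222 called. All lists were chosen with earlier results of these data known, so their counts and medians below are descriptions and no separate evidence. For each list the comparison over all tested genes is 1.62% called and 6601 of 13733 with a log2 fold change above 0. Leaving out 1 mouse at a time gave 135 to 323 genes, with fewer without CORT mice L8A (138), L26A (138) and L32A (135) or vehicle mouse L25A (137). Called genes lay across most of the range of levels in the plot of change against level.

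**Figure D1:**
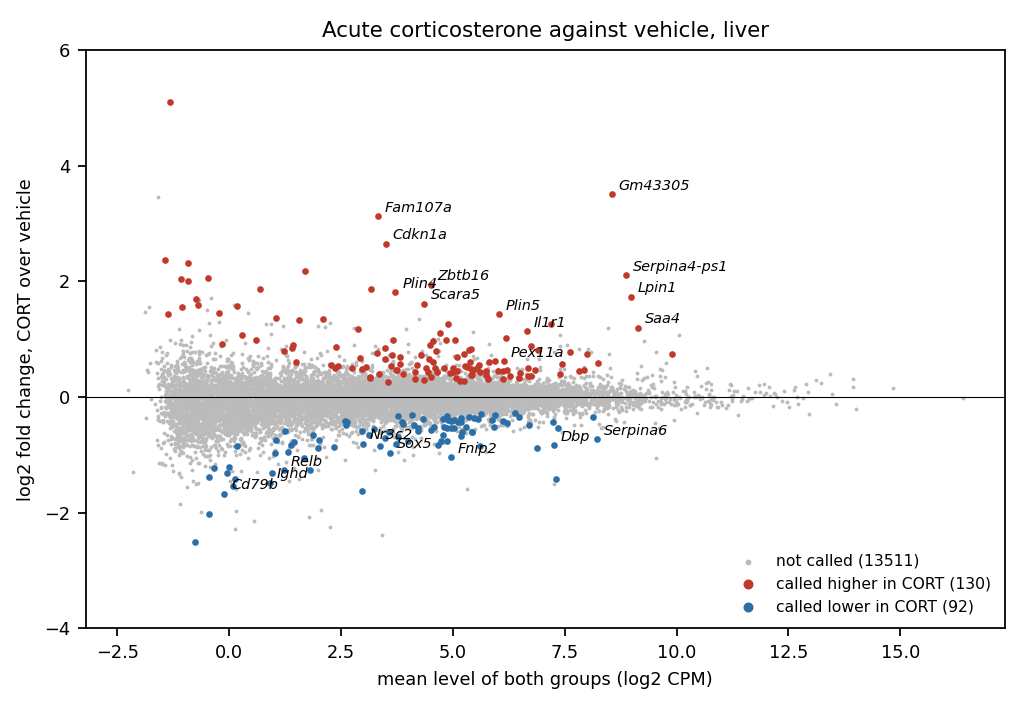
Log2 fold change of CORT over vehicle (vertical axis) against the mean level of both groups in log2 CPM (horizontal axis) for the 13733 genes tested, 1 point a gene. Red points are the 130 genes called higher and blue points the 92 called lower. Gm43305 and Fam107a stand highest among the genes with names. The red point at the upper left is Gm19439, at 0.786 CPM in CORT and 0.0168 CPM in vehicle livers, too few vehicle counts for a fold.

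Without L19A, 207 of 13822 genes were called (1.5%), 114 higher and 93 lower. Both fits called 157 genes. The other 65 were called only with L19A and 50 only without it, 21 of these higher and 29 lower. All 222 genes kept their direction without L19A, 162 had a smaller change, and the highest adjusted p among them was 0.1086. The groups did not overlap for 111 of the 222 genes, 71 of them higher and 40 lower. Over all tested genes, non-overlap was seen in 202 (1.47%), and when L19A was left out 116 of the 222 did not overlap.

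Fam107a, Agap2, Eppk1 and Mdm1 were among the 14 largest rises that passed the rules for named genes. These rules left out best-known targets, predicted names, genes below 2 CPM and genes not called without L19A. Fam107a had 9.8, 15.1 and 36.2 CPM in CORT livers (lowest, median and highest of 6), against 0.155, 1.03 and 6.86 CPM in vehicle livers. Every CORT mouse was above every vehicle mouse. The gene (ENSMUSG00000021750, chromosome 14, 8296274 to 8318023 in GRCm38) rose by 3.13 ± 0.58 (log2 fold change ± SE here and below, edgeR's quasi-likelihood test with Benjamini-Hochberg adjustment, adjusted p = 0.00595), and by 2.92 without L19A (adjusted p = 0.0174). In a fit of only the 12 libraries its adjusted p was 0.0696. Agap2, which encodes a GTPase-activating protein that also acts on phosphoinositide 3-kinase, had 3.39, 6.08 and 9.07 CPM in CORT livers, against 1.51, 1.95 and 3.83 CPM in vehicle livers. The groups overlapped slightly, and the gene rose by 1.34 ± 0.28 (adjusted p = 0.0092). Eppk1, the gene of the cytoskeletal linker epiplakin, had 22.9, 31.2 and 41.2 CPM in CORT livers, against 12.7, 16.1 and 18.6 CPM in vehicle livers. The mice did not overlap, and the rise was 0.96 ± 0.14 (adjusted p = 0.000303). Mdm1, which encodes a microtubule-binding protein of centrioles, rose by 0.98 ± 0.20 at a low level, 2.02 ± 0.609 CPM in CORT and 1.02 ± 0.179 CPM in vehicle livers (mean ± SD, n = 6 each, adjusted p = 0.0092, and 0.0575 with only the 12 libraries).

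Mfsd2a, Scara5, Slc45a3 and Ces4a rose, and of these Slc45a3 alone kept its call with each mouse left out. Mfsd2a, which encodes a carrier of lysophosphatidylcholine, had 35.2, 41.3 and 50.2 CPM in CORT livers, against 7.79, 15 and 29.8 CPM in vehicle livers. The mice did not overlap, and the rise was 1.26 ± 0.28 (adjusted p = 0.0229). It was not called without L26A, L13A or L25A (adjusted p = 0.0502 to 0.0545), nor with only the 12 libraries (adjusted p = 0.0838). Scara5, which encodes a ferritin receptor, had 9.53, 35.4 and 42.8 CPM in CORT livers, against 3.65, 9.67 and 17.2 CPM in vehicle livers. CORT mouse L14A, the lowest of its group, lay within the vehicle range, the rise was 1.61 ± 0.36 (adjusted p = 0.0234), and the call was lost without L26A, L32A, L8A, L13A or L25A (adjusted p = 0.051 to 0.061) and with only the 12 libraries (adjusted p = 0.0949). Slc45a3, a member of a family of sugar transporters, had 31.4, 37.7 and 46.1 CPM in CORT livers, against 13.4, 18.7 and 27 CPM in vehicle livers. It rose by 0.99 ± 0.14 without overlap (adjusted p = 0.000246), but 10.6% of its 50-base stretches also occur in Gm29103, so its level is uncertain. Ces4a, a carboxylesterase gene, had 2.66, 16 and 22.6 CPM in CORT livers, against 1.95, 3.58 and 6.7 CPM in vehicle livers. CORT mice L2A and L14A lay within the vehicle range. Ces4a rose by 1.87 ± 0.44 (adjusted p = 0.0309) and lost its call in 8 fits, those without L20A, L26A, L32A, L8A, L13A, L1A, L25A or L31A (adjusted p = 0.0503 to 0.0828), and with only the 12 libraries (adjusted p = 0.0961).

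Il1r1, Saa4, Map3k6, Phf8, Shld2 and Ccdc151 rose as well. Il1r1, the gene of the signalling receptor for interleukin-1, had 101, 134 and 181 CPM in CORT livers, against 44.7, 62.9 and 82.5 CPM in vehicle livers. The groups did not overlap, and the rise was 1.14 ± 0.22 (adjusted p = 0.00622). Saa4, which encodes the constitutive serum amyloid A protein, had 452, 832 and 946 CPM in CORT livers, against 271, 312 and 473 CPM in vehicle livers. Only CORT mouse L14A lay within the vehicle range, and the rise was 1.20 ± 0.16 (adjusted p = 0.000246). Il1r1 and Saa4 were the 2 of 28 tested acute phase genes called, both higher, while the median of the list was 0.09, against -0.01 over all genes. Map3k6 had 7.54, 9.7 and 13.1 CPM in CORT livers, against 3.04, 3.84 and 7.57 CPM in vehicle livers. Vehicle mouse L1A just reached the lowest CORT mouse, and Map3k6 rose by 1.18 ± 0.20 (adjusted p = 0.00167). Phf8, an X-linked histone demethylase gene, rose by 1.10 ± 0.19 without overlap between the mice (35.9 ± 12.2 CPM in CORT and 16.7 ± 4.06 CPM in vehicle livers, adjusted p = 0.00264). Shld2, which encodes a subunit of the shieldin complex of DNA break repair, rose by 0.99 ± 0.16, also without overlap (44.2 ± 3.98 CPM in CORT and 22.3 ± 4.77 CPM in vehicle livers, adjusted p = 0.000997). Ccdc151, a gene of dynein arm docking in cilia, rose by 1.33 ± 0.30 (adjusted p = 0.0216), with no call without L32A or L25A (adjusted p = 0.0601 to 0.0765) or with only the 12 libraries (adjusted p = 0.0627).

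**Figure D2:**
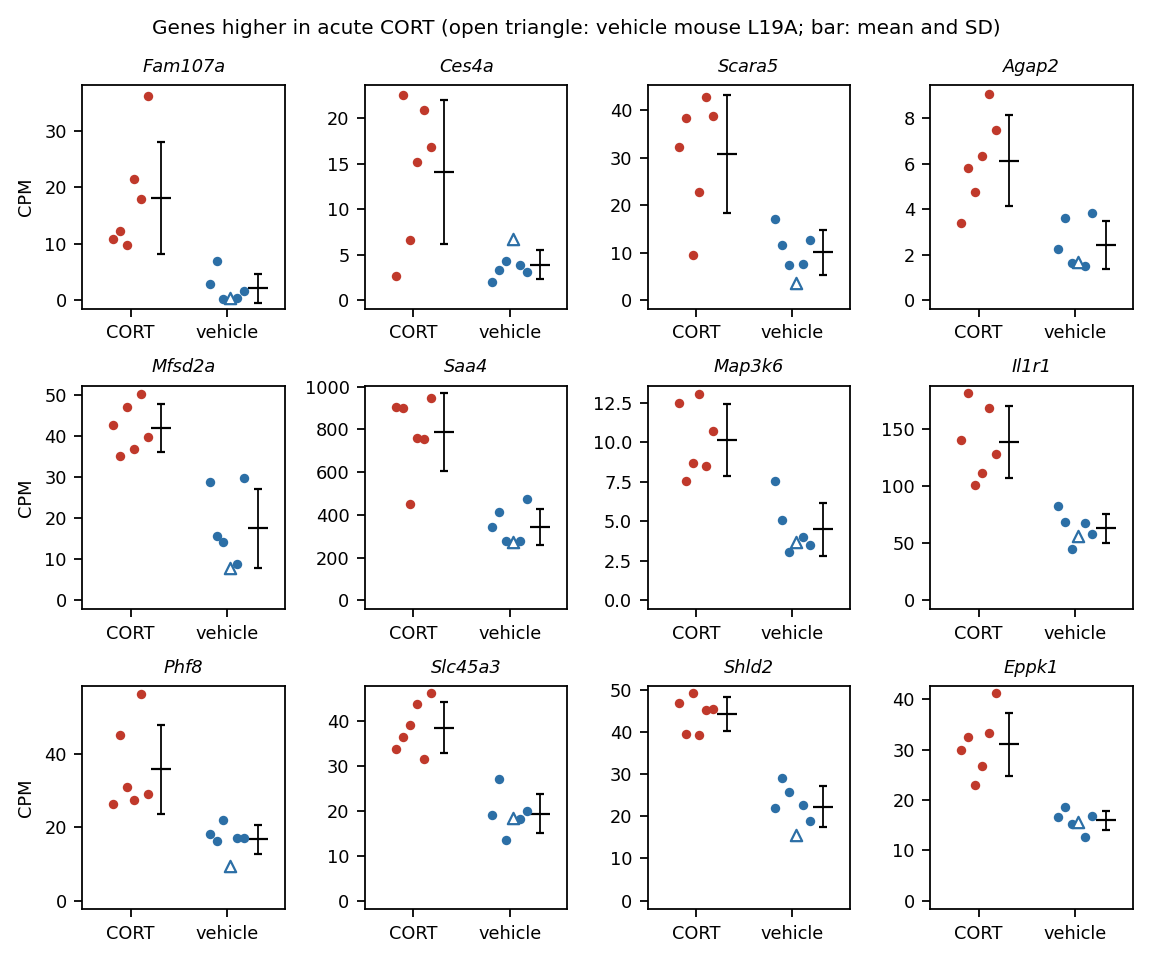
Levels in CPM (vertical axes, each from about 0) of 12 genes called higher, with 1 point for each of the 6 CORT mice (red) and 6 vehicle mice (blue), the open triangle marking vehicle mouse L19A and the bars the mean and SD. The mice do not overlap for Fam107a, Mfsd2a, Il1r1, Phf8, Slc45a3, Shld2 and Eppk1, and for Agap2, Scara5, Saa4 and Map3k6 1 CORT mouse, and for Ces4a 2, reach into the vehicle range.

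A few of the strongest rises belonged to transcripts without a described role, which were chosen after their values had been seen. Gm43305, annotated as a processed transcript on chromosome 14 (54292443 to 54297456), had 411, 674 and 915 CPM in CORT livers, against 19.3, 55.1 and 106 CPM in vehicle livers. The lowest CORT mouse was well above the highest vehicle mouse. The rise was 3.51 ± 0.56 (adjusted p = 0.0017), the largest among called genes above 2 CPM, with 15% of its 50-base stretches shared with Gm42031. The pseudogene Serpina4-ps1 rose by 2.11 ± 0.51 (759 ± 412 CPM in CORT and 176 ± 115 CPM in vehicle livers, adjusted p = 0.0368), with a wide spread among CORT mice and no call without L20A, L26A, L32A, L8A, L13A, L19A, L1A, L25A or L31A (adjusted p = 0.0514 to 0.0843), with only the 12 libraries (adjusted p = 0.133) or with sets of neighbouring mouse numbers as a covariate (adjusted p = 0.0509). Serpina3c, the protease inhibitor gene whose promoter is shown above, lies 59658 bases from it and rose by 1.07 ± 0.24 at a low level (1.65 ± 0.624 CPM in CORT and 0.785 ± 0.125 CPM in vehicle livers, adjusted p = 0.0216, and 0.0503 to 0.0765 without L26A or L32A and 0.0627 with only the 12 libraries).

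Among the genes that fell, 2 belong to the sensing of nutrients by mTORC1, the kinase complex that couples amino acid supply to growth. Fnip2, which encodes a partner of folliculin in the control of Rag GTPases, had 12.6, 21.2 and 25.8 CPM in CORT livers, against 29.6, 42.7 and 58.2 CPM in vehicle livers. The groups did not overlap, and Fnip2 fell by 1.04 ± 0.16 (adjusted p = 0.000961). Rnf152, the gene of a ubiquitin ligase that acts on RagA, had 12.8, 14.5 and 19.5 CPM in CORT livers, against 19.2, 22.8 and 25.6 CPM in vehicle livers. CORT mouse L14A alone lay within the vehicle range, and the fall was 0.59 ± 0.12 (adjusted p = 0.00756). edgeR called no other of the 29 tested genes of the mTORC1 list (DESeq2 called 3), whose median log2 fold change was -0.05.

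Nr3c2 and Serpina6, both of the list of glucocorticoid supply and chaperones, were called lower, and the receptor gene Nr3c1 was not called. Nr3c2, the gene of the mineralocorticoid receptor, which also binds corticosterone, had 4.41, 5.85 and 7.22 CPM in CORT livers, against 6.26, 10.1 and 14.7 CPM in vehicle livers. L19A was the lowest vehicle mouse and the only one within the CORT range. Nr3c2 fell by 0.81 ± 0.17 (adjusted p = 0.0124), and its log2 fold change was -0.91 without L19A (adjusted p = 0.00373). Serpina6, which encodes the corticosteroid-binding globulin of plasma, had 145, 258 and 266 CPM in CORT livers, against 275, 359.5 and 538 CPM in vehicle livers. No mice overlapped, yet the fall of 0.73 ± 0.19 (adjusted p = 0.0452) was near the threshold and was not called without L20A, L26A, L32A, L8A, L13A, L19A, L1A, L25A or L31A (adjusted p = 0.0511 to 0.114) or with only the 12 libraries (adjusted p = 0.0679). The receptor gene Nr3c1 had a log2 fold change of 0.08 ± 0.12 (adjusted p = 0.827). Hsd11b1, whose enzyme regenerates active glucocorticoid in liver, had 0.02 ± 0.09 (adjusted p = 0.955). Of 24 tested genes of glucocorticoid supply and chaperones, 1 was higher (Fkbp5) and 2 were lower (Nr3c2 and Serpina6). Without L19A, Fkbp5 and Nr3c2 were called.

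The clock genes Per3 and Dbp were the 2 called of 24 tested in the clock list, both lower, with a list median of -0.11. Over all tested genes 1.62% were called. Per3, a period gene, had 20.8, 36.2 and 42.4 CPM in CORT livers, against 52.9, 61.3 and 76 CPM in vehicle livers. The mice did not overlap, and the gene fell by 0.85 ± 0.14 (adjusted p = 0.0013). Dbp, the gene of a transcription factor driven by the clock, had 79.6, 109 and 150.0 CPM in CORT livers, against 145, 179 and 272 CPM in vehicle livers. Its highest CORT mouse, L20A, passed its lowest vehicle mouse, L7A. Dbp fell by 0.83 ± 0.17 (adjusted p = 0.0092), and 18% of its exon bases overlap Sphk2 on the other strand. Per1, a period gene known as a direct glucocorticoid target, had a log2 fold change of -0.02 ± 0.31 (adjusted p = 0.985), with vehicle mouse L1A at 86.5 CPM against at most 38.6 CPM in the other vehicle mice. The hour of the day at which the livers were taken is not stated in the labels.

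Sox5, Eepd1, Pde4c and Adcy6 were also called lower. Sox5, an SRY-box transcription factor gene, had 6.43, 8.41 and 9.37 CPM in CORT livers, against 12.4, 16.5 and 20 CPM in vehicle livers. The mice did not overlap, and the fall was 0.96 ± 0.14 (adjusted p = 0.000374). Of 40 tested transcription factors and corepressors of fasting and stress, Sox5 was the 1 called lower, and Zbtb16 and Hif3a were called higher. Eepd1, whose protein has an endonuclease domain, had 9.02, 9.64 and 10.4 CPM in CORT livers, against 13.5, 16.1 and 21.9 CPM in vehicle livers. CORT mice lay in a narrow band below every vehicle mouse, and Eepd1 fell by 0.82 ± 0.11 (adjusted p = 0.000246). Pde4c, a phosphodiesterase gene that ends cyclic AMP signals, had 18.2, 19.2 and 21.6 CPM in CORT livers, against 26.9, 30.4 and 54.6 CPM in vehicle livers. L19A held the highest value, and the log2 fold change was -0.77 ± 0.16 with it and -0.57 without it (adjusted p = 0.0092 and 0.0198). Adcy6, the gene of an adenylyl cyclase that makes cyclic AMP, fell by 0.54 ± 0.14 (adjusted p = 0.0489) and was not called without L14A, L20A, L2A, L32A, L8A, L19A, L1A or L25A (adjusted p = 0.0624 to 0.122), with only the 12 libraries (adjusted p = 0.17) or with sets of neighbouring mouse numbers as a covariate (adjusted p = 0.058). Pde4c and Adcy6 were the 2 of 31 cyclic AMP genes called, and without L19A the 2 were Pde4c and Pde4b.

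Shroom3, which encodes an actin-binding protein of apical constriction, had 4.79, 7.66 and 10.6 CPM in CORT livers, against 11.3, 13 and 17.5 CPM in vehicle livers. It fell by 0.85 ± 0.20 without overlap (adjusted p = 0.0237), with no call without L14A, L26A or L25A (adjusted p = 0.0506 to 0.0688), and 24.9% of its exon bases overlap 4932430I15Rik on the other strand. Fgfr2, a fibroblast growth factor receptor gene, fell by 0.52 ± 0.12 without overlap (22.9 ± 3.36 CPM in CORT and 32.8 ± 2.52 CPM in vehicle livers, adjusted p = 0.0248), with no call without L26A, L2A, L8A or L25A (adjusted p = 0.0541 to 0.0738). It was the 1 call among 26 insulin and growth factor receptor genes, of which 6 had a value above 0. The values over all tested genes were 1.62% called and 6601 of 13733 above 0. Sh3yl1, an SH3 domain gene, fell by 0.87 ± 0.16 (adjusted p = 0.00547). Samd4, which encodes a translational repressor, and Serpinb8, a protease inhibitor gene, had log2 fold changes of -0.88 ± 0.23 and -0.96 ± 0.23 (adjusted p = 0.0487 and 0.0279). Samd4 was not called without L20A, L26A, L32A, L8A, L1A, L25A, L31A or L7A and Serpinb8 not without L20A, L32A, L8A, L13A, L25A or L31A, with adjusted p up to 0.139 and 0.078, and neither was called with only the 12 libraries (adjusted p = 0.0898 and 0.0791).

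**Figure D3:**
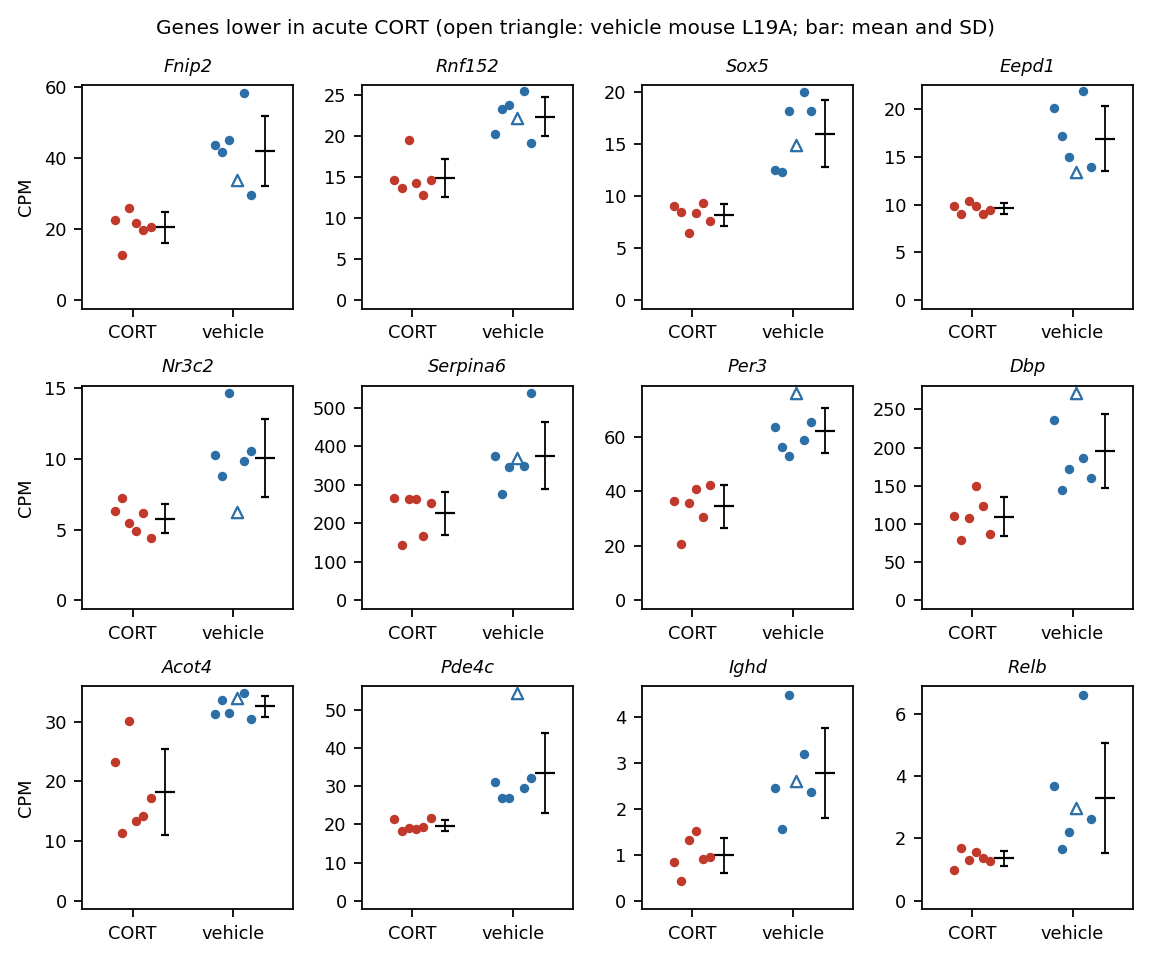
Levels in CPM (vertical axes, each from about 0) of 12 genes called lower, with 1 point for each of the 6 CORT mice (red) and 6 vehicle mice (blue), the open triangle marking vehicle mouse L19A and the bars the mean and SD. L19A is the highest vehicle mouse for Pde4c, Per3 and Dbp and the lowest for Nr3c2 and Eepd1.

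Pex11a and Angptl4 rose and Acot4 fell. Pex11a, which encodes a peroxisomal membrane protein of peroxisome division, had 76.8, 84.3 and 97.6 CPM in CORT livers, against 50.9, 55 and 60.5 CPM in vehicle livers. Its rise of 0.62 ± 0.08 had one of the smallest adjusted p of the comparison (5.6e-05), with no overlap. Acot4, a peroxisomal acyl-CoA thioesterase gene, had 11.2, 15.7 and 30.1 CPM in CORT livers, against 30.5, 32.5 and 34.8 CPM in vehicle livers. CORT mice L2A and L14A were highest in their group and nearest to the vehicle mice, and the gene fell by 0.84 ± 0.19 (adjusted p = 0.0175, and 0.0522 without L26A and 0.0575 with only the 12 libraries). Angptl4, the gene of a lipoprotein lipase inhibitor, rose by 1.01 ± 0.23 (96.8 ± 18.1 CPM in CORT and 47.9 ± 16.6 CPM in vehicle livers, adjusted p = 0.023, and 0.0506 to 0.0595 without L26A, L8A, L13A or L25A). Of 36 tested genes of PPAR-alpha and fatty acid oxidation, these 3 were called, with a median of 0.05. Of 30 genes of lipid droplets and triglyceride synthesis, 3 were higher and none lower (Plin5, Plin4 and Lpin1), and without L19A Mgll, the monoglyceride lipase gene, was called higher too. Plin4 and Plin5 are neighbours, 1798 bases apart on chromosome 17.

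Of 31 tested genes on the list of best-known glucocorticoid targets, 9 were called, all higher, with a median of 0.59 over the 31, against -0.01 over all genes. This list too was chosen with earlier results of these data known, so these values describe its members and are no test. The 9 were Plin5, Cdkn1a, Plin4, Lpin1, Zbtb16, Fkbp5, Tsc22d3, Hif3a and Angptl4, and the same 9 were called without L19A. The cell cycle inhibitor gene Cdkn1a (p21) had 15, 18.8 and 24 CPM in CORT livers, against 0.986, 2.89 and 5.45 CPM in vehicle livers. Fkbp5, the gene of a receptor cochaperone, had 172, 211 and 235 CPM in CORT livers, against 32.7, 72.2 and 149 CPM in vehicle livers. Neither gene overlapped between the groups, with rises of 2.65 ± 0.37 and 1.26 ± 0.24 (adjusted p = 0.000303 and 0.00595), and Fkbp5 had an adjusted p of 0.0734 with only the 12 libraries. Tsc22d3, which encodes the glucocorticoid-induced leucine zipper, rose by 0.83 ± 0.17 (adjusted p = 0.0092). Hif3a, a hypoxia-inducible factor gene, stayed below 2 CPM in every mouse and rose by 2.03 ± 0.42 (0.765 ± 0.409 CPM in CORT and 0.179 ± 0.109 CPM in vehicle livers, adjusted p = 0.0092). It was too low to be tested with only the 12 libraries or under the stricter filter.

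Several B cell genes were lower in CORT livers. In bulk liver, fewer cells of a type and less RNA per cell cannot be told apart. Of 18 B cell markers found, 12 were tested and 5 were called, all lower, among them Cd79b, Ighd and Cd79a. No tested marker had a log2 fold change above 0, and the median was -1.39. The summed level of the 18 markers was 50.3, 61.3 and 69.6 CPM in CORT livers (lowest, median and highest), against 68.1, 85.8 and 111 CPM in vehicle livers. The ranges overlap at their edge, no marker was at 0 in either group, and the part of these cells in the other falls was not tested. Ighd, which encodes the constant region of immunoglobulin D, had 0.419, 0.925 and 1.51 CPM in CORT livers, against 1.56, 2.54 and 4.48 CPM in vehicle livers. It fell by 1.48 ± 0.30 without overlap (adjusted p = 0.00745). The light chain gene Igkc, on none of the lists, fell by 1.05 ± 0.24 (2.08 ± 0.62 CPM in CORT and 4.31 ± 1.25 CPM in vehicle livers, adjusted p = 0.0211, and 0.0503 to 0.0595 without L26A, L32A, L8A, L13A or L25A). Relb, the gene of a subunit of the alternative NF-kappaB pathway, had 0.991, 1.33 and 1.68 CPM in CORT livers, against 1.67, 2.79 and 6.61 CPM in vehicle livers. Vehicle mouse L25A was the highest, and L7A lay within the CORT range. Relb fell by 1.27 ± 0.30 (adjusted p = 0.0256, and 0.0535 to 0.0951 without L26A, L2A, L32A, L1A or L25A and 0.0552 with only the 12 libraries), the 1 call among 26 genes of NF-kappaB and chemokines, 6 of which had a value above 0. Over all tested genes, 1.62% were called and 6601 of 13733 had a value above 0.

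The markers of other cell types gave few calls. No T and NK cell marker of 12 tested was called by edgeR or DESeq2 (3 at an unadjusted p under 0.05), and the summed level of the list was 15.5, 16.8 and 20.1 CPM in CORT livers, against 19.5, 24.1 and 27.6 CPM in vehicle livers, again with an overlap at the edge. The median of these 12 genes was -0.47. H2-Ob, the gene of an MHC class II chaperone chain that B cells and dendritic cells both use, was the 1 dendritic cell marker of 10 called, with a log2 fold change of -1.21 ± 0.29 (adjusted p = 0.0293) and no call without L14A, L20A, L32A, L8A, L13A, L19A or L25A (adjusted p = 0.0587 to 0.0718) or with only the 12 libraries (adjusted p = 0.0549). In Kupffer cells, the resident macrophages of liver, 1 marker of 14 was called. Cd163, the haemoglobin scavenger receptor gene, had 12.2, 18.1 and 20.1 CPM in CORT livers, against 4.98, 9.59 and 10.1 CPM in vehicle livers. The mice did not overlap, and the rise was 0.99 ± 0.24 (adjusted p = 0.0377), with no call without L14A, L20A, L26A, L32A, L19A, L1A, L25A or L31A (adjusted p = 0.0535 to 0.0899). The summed level of the 14 Kupffer cell markers was 369, 446 and 505 CPM in CORT livers, against 375, 469 and 526 CPM in vehicle livers, which overlap almost wholly.

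Many metabolic lists had few or no calls. In gluconeogenesis and glycogen, 1 of 27 genes was called, Phka2, which encodes a regulatory subunit of phosphorylase kinase, lower by 0.33 ± 0.08 (adjusted p = 0.0314) and not called without L20A, L26A, L32A, L8A, L13A, L19A, L1A or L25A (adjusted p = 0.0531 to 0.0899) or with only the 12 libraries (adjusted p = 0.135). DESeq2 called 4 genes of this list and limma-voom 1. None of 48 genes of amino acid catabolism and transport was called by edgeR (9 at an unadjusted p under 0.05, 1 called by DESeq2). None of 26 genes of bile acid synthesis and transport was called by edgeR or DESeq2 (4 at an unadjusted p under 0.05). In edgeR and DESeq2, 0 of 22 cholesterol synthesis genes and 0 of 25 interferon-stimulated genes were called, with 2 each at an unadjusted p under 0.05. Among 37 nuclear receptors, Nr3c2 was called lower and Nr1i2, the gene of the xenobiotic receptor PXR, higher by 0.36 ± 0.08 (87.7 ± 9.47 CPM in CORT and 68.4 ± 4.14 CPM in vehicle livers, adjusted p = 0.0103, and 0.0552 with only the 12 libraries). The 20 male-biased genes had a median of 0.32 with 19 above 0, and the 12 female-biased genes a median of -1.03 with 1 above 0, but edgeR called none of either list (7 and 4 at an unadjusted p under 0.05, and 1 each called by DESeq2).

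Without L19A, 50 further genes were called. The 6 with the smallest p among those called only without it were Phlpp1, Rell1, Vsig10l, Dsp, Ddx39b and Dock8. Dsp, which encodes desmoplakin of the desmosome, had 30.2, 45.9 and 47.9 CPM in CORT livers, against 34.9, 66.4 and 77.5 CPM in vehicle livers, where L19A was at 34.9 CPM and the other 5 between 64.2 and 77.5 CPM. Phlpp1, the gene of a phosphatase that inactivates AKT, had 15.6, 19.4 and 20.5 CPM in CORT livers, against 18, 25.5 and 32 CPM in vehicle livers. Without L19A the groups did not overlap for any of the 6. The 6 were chosen because they were called only without L19A, so this is no separate evidence about that mouse. The log2 fold change of Dsp was -0.55 ± 0.17 with L19A (adjusted p = 0.0972) and -0.67 without it (adjusted p = 0.0161). For Phlpp1 these values were -0.45 ± 0.12 (adjusted p = 0.0535) and -0.54 (adjusted p = 0.0108).

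The 12 other acute livers, CORT+ENZA against ENZA, gave a second measure of the CORT effect in mice that the first comparison did not use, though in the same model. There, 248 of 13733 genes were called (1.81%), and 118 to 253 with 1 of those mice left out (genes called in acute CORT+ENZA against acute ENZA: 118 without L12A, 142 without L6A, 126 without L17A, 157 without L29A, 133 without L35A and 145 without L5A). Of the 222 genes, 219 had the same sign and 82 were called in the same direction, 57 higher and 25 lower, which is 36.94% of the 222 and 33.06% of the 248. The median log2 fold change in CORT+ENZA against ENZA was 0.4635 over the genes called higher with CORT and -0.3734 over those called lower. Eepd1 and Rnf152 fell there too (log2 fold change -1.11 ± 0.11 and -0.97 ± 0.12, adjusted p = 5.29e-06 and 5.81e-05). Fam107a and Scara5 rose by 3.38 ± 0.66 and 3.08 ± 0.39 (adjusted p = 0.00941 and 0.000237). Mfsd2a had 0.18 ± 0.28 (adjusted p = 0.838) and Tsc22d3 0.14 ± 0.17 (adjusted p = 0.792). The mean level of Mfsd2a was 48.7 CPM in CORT+ENZA and 42.9 CPM in ENZA livers, against 42 CPM in CORT and 17.55 CPM in vehicle livers. The test of the difference between both backgrounds called no gene with edgeR, DESeq2 or limma-voom, with 501, 523 and 657 genes at an unadjusted p under 0.05. With edgeR, 35 of the 222 genes were below that limit without adjustment, Tsc22d3, Scara5 and Mfsd2a among them, each with an adjusted p of 0.994.

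**Figure D4:**
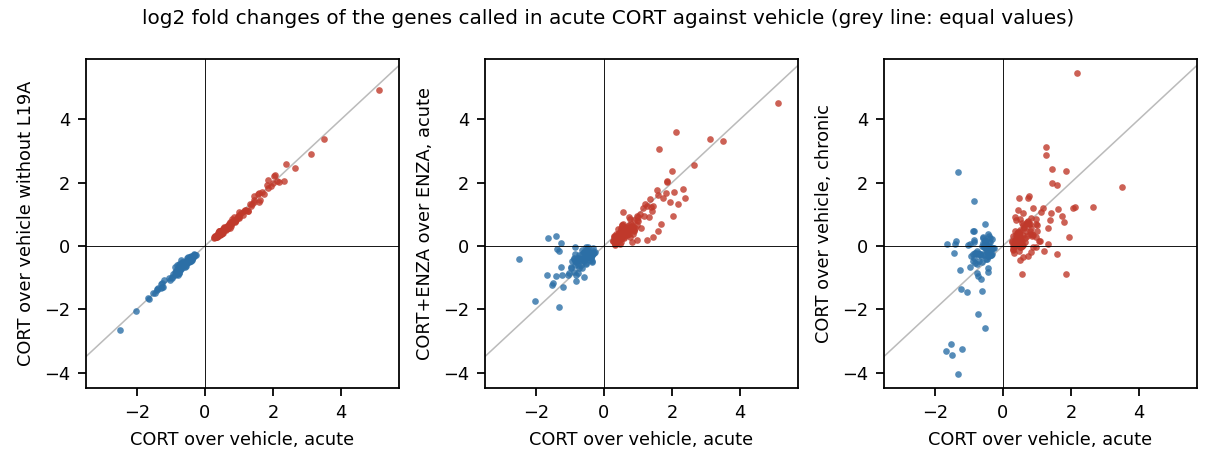
Log2 fold changes of the 222 called genes in acute CORT over vehicle (horizontal axes) against the same without L19A (left), CORT+ENZA over ENZA in the acute arm (middle) and chronic CORT over vehicle (right, 210 genes tested), red for genes called higher and blue for genes called lower. All 222 points keep their sign on the left, 219 in the middle and 165 of 210 on the right.

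CORT mice differed in their levels of genes chosen in other mice. Genes were called in a fit of the CORT+ENZA and ENZA libraries alone, where 249 of 13186 genes passed, and then followed in the 12 CORT and vehicle mice. The 152 higher genes had a median log2 deviation from the mean of the 12 mice of 0.0554 in L2A, 0.411 in L8A, 0.0453 in L14A, 0.309 in L20A, 0.454 in L26A and 0.292 in L32A, against -0.354 to -0.073 in vehicle mice. For the 97 lower genes it was -0.0168 in L2A, -0.283 in L8A, -0.023 in L14A, -0.202 in L20A, -0.365 in L26A and -0.193 in L32A, against 0.138 to 0.237 in vehicle mice. The groups did not overlap in either set, and L2A and L14A lay nearest to the vehicle mice in both. Single genes went either way. Ces4a had 2.66 CPM in L2A and 6.64 CPM in L14A, against 22.6 CPM in L8A. Fkbp5 had 205 CPM in L2A and 180 CPM in L14A, against 172 CPM in L8A. Each mouse gave 1 library, and whether mice differed in their response to CORT was not tested. In CORT against vehicle, 148 of the 152 genes were above 0 and 96 of the 97 below 0, with medians of 0.493 and -0.375.

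**Figure D5:**
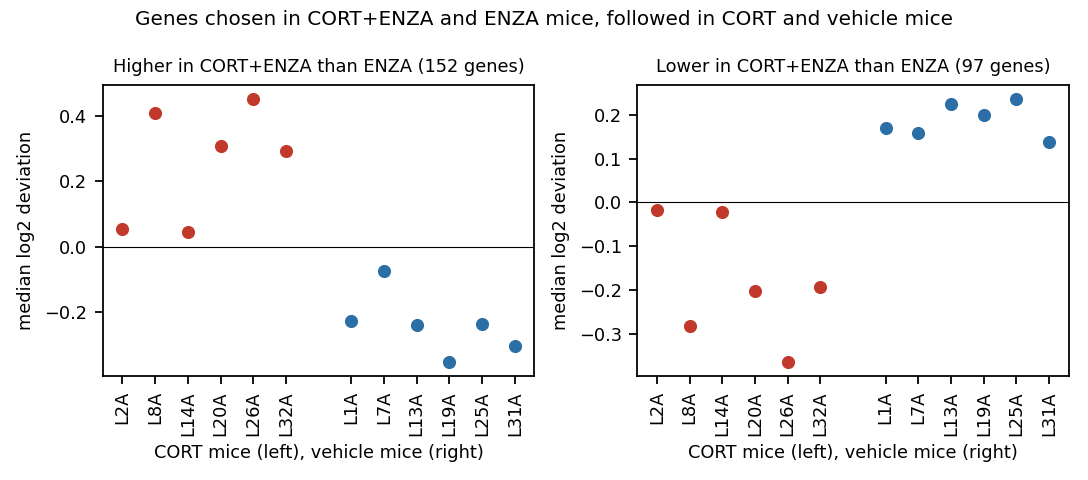
Median log2 deviation from the mean of the 12 mice (vertical axes) of the 152 genes called higher (left panel) and the 97 called lower (right panel) in CORT+ENZA against ENZA alone, for each of the 6 CORT mice (red) and 6 vehicle mice (blue). CORT mice L2A (0.0554 and -0.0168) and L14A (0.0453 and -0.023) lie closest to the vehicle mice.

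In the chronic arm, 2401 of 13099 genes were called with CORT (18.3%), 1184 higher and 1217 lower. Of the 222 acute genes 210 were tested there and 165 had the same sign. Of the genes called in both arms, 52 were higher in both, 18 were lower in both and 7 changed in opposite directions. Mfsd2a rose by 3.13 ± 0.37 in the chronic arm (adjusted p = 2.24e-05), and Fkbp5 by 2.89 ± 0.40 (adjusted p = 0.000108). Serpina6 had a chronic log2 fold change of -2.15 ± 0.22 (adjusted p = 3.79e-06) and Ighd one of -3.43 ± 0.47 (adjusted p = 6.2e-05). Shld2 rose by 0.86 ± 0.09 (adjusted p = 4.02e-06). Acot4, lower in the acute arm, had a chronic value of 1.42 ± 0.25 (adjusted p = 0.000696). Fnip2 and Sox5 had chronic values of 0.04 ± 0.19 and 0.07 ± 0.11 (adjusted p = 0.922 and 0.716), and Saa4 one of -0.15 ± 0.19 (adjusted p = 0.621). Duration and the extraction kit cannot be told apart between the arms.

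Several called genes were neighbours. Of the 222, 11 pairs lay within 100 kb of each other or overlapped. How often tested genes lie this close was not counted, so the number of pairs has no background beside it. Plin4 and Plin5, Nucks1 and Slc45a3 (26646 bases apart), Serpina4-ps1 and Serpina3c, Chd1l and Fmo5 (18601 bases), Ttpal and Serinc3 (4259 bases) and St3gal5 and Gm38832 (8278 bases) were all higher in CORT. So were Ppip5k2 and Gin1, and Npm3 and Gm15491, which overlap, while Cdc14b and 1810034E14Rik, which overlap, were both lower. Mrps2 was higher and Ralgds, 41947 bases away, lower. Inside Fkbp5 on the opposite strand lies AC154912.1 (28446500 to 28456457 on chromosome 17), which had 0.585, 0.767 and 2.27 CPM in CORT livers, against 1.7, 2.42 and 4.13 CPM in vehicle livers. The groups overlapped. It fell by 1.31 ± 0.34 (adjusted p = 0.0471) while Fkbp5 rose, and was not called without L20A, L26A, L32A, L8A, L19A, L1A, L25A or L31A (adjusted p = 0.0569 to 0.118) or with only the 12 libraries (adjusted p = 0.0884). No source used here states the strand setting of the counting, so reads of overlapping genes on opposite strands may not be separated.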

How the data were processed

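Per the labels, messenger RNA of 42 livers was made into stranded libraries and read on the DNBseq platform with paired ends of 100 bp. The authors deposited unnormalized counts of reads for each gene in a table for each arm, with a column for each mouse, per the file headers. Per the submitters' processing notes, STAR 2.7.3a, HTSeq 0.12.4, MultiQC and FastQC had been used, with build mm10 (GRCm38). Neither the annotation release nor the strand setting is stated there. Of 55573 gene IDs in a table, 55480 occur in GENCODE M21. Lines without a gene (5 summary rows) were dropped.

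The tests used edgeR 4.0.16 in R 4.3.3 (filterByExpr with minimum count 10 and minimum total 15, TMM, quasi-likelihood F test with robust spread, group means, no covariate) on all 24 acute libraries, or all 18 chronic ones. Genes were called at a Benjamini-Hochberg adjusted p of 0.05 over all tested genes. The SE is the size of the log2 fold change divided by the square root of F. Levels are CPM scaled by TMM. P-values measure the spread between mice, each labelled as a separate sample. No pair of libraries in a group was a duplicate: their smallest chi-square was 13.6 for each degree of freedom. The fit was tested on simulated data. It called 77 of 99 genes changed 2-fold, 56 of 100 changed 1.5-fold and 3 of 13424 unchanged genes. A gene not called may therefore still have changed. Tallies by mouse used log2 of CPM plus 0.1.

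The members, the 38 gene lists (24 pathways, 14 sets of markers) and the tests were chosen with earlier results of these data known. Named genes were called with and without L19A, had at least 2 CPM in the higher group, had no predicted name and were not best-known targets: the 14 largest rises and the 14 largest falls. Up to 3 called members of each list, the 6 with the smallest p called only without L19A, and Nr3c1, Hsd11b1, Fkbp5, Tsc22d3, Per1 and Cdkn1a were added. Others are said to have been chosen after their values were seen. A gene with at least 10% of its 50-base transcript stretches in another gene is called uncertain. Alternatives were DESeq2 1.42.0, limma-voom (limma 3.58.1) with quality weights, RLE factors, no and a stricter low-count filter (6 libraries at 1 CPM or more), the compared groups fitted alone, omission of each library, omission of L19A and L36A together, and sets of mouse numbers as a term.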

Additional observations from a re-analysis of the deposited data

Results flagged for a closer look

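Among 130 groups of 6 mice tested over the named genes, 12 held a mouse far from the others by Dixon's test at the 95% level, where chance alone gives about 1 in 20 groups. Vehicle mouse L19A was that mouse in 5 of them, but 3 of these genes (Vsig10l, Dsp and Ddx39b) had been named because they were called only without L19A, so the tally is no measure of how often L19A stands apart. Its level was 54.6 CPM for Pde4c (26.9 to 32.2 CPM in the other vehicle mice), 4.53 CPM for Vsig10l (1.8 to 2.37 CPM), 34.9 CPM for Dsp (64.2 to 77.5 CPM), 83.8 CPM for Ddx39b (57.5 to 64.3 CPM) and 39 CPM for the receptor gene Nr3c1 (63 to 75.4 CPM).

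In CORT livers, L26A had 1191 CPM of Lpin1, a gene of triglyceride synthesis, against 619 to 773.8 CPM in the other CORT mice, and 5.66 CPM of Mir6236, against 3.17 to 3.91 CPM. L14A had 19.5 CPM of Rnf152 (12.8 to 14.7 CPM in the others), L32A 30.2 CPM of Dsp (44.1 to 47.9 CPM) and L8A 80.4 CPM of Nr3c1 (63.3 to 68.9 CPM). In vehicle livers, L1A had 86.5 CPM of the clock gene Per1 (20.1 to 38.6 CPM in the others) and L13A had 32.4 CPM of Mir6236 (4.32 to 13.1 CPM).

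Of the 7 genes called in both arms with opposite directions of the CORT effect, 3 are among the named genes. The chronic log2 fold change was 0.48 for Sh3yl1, 1.42 for Acot4 and 2.32 for AC154912.1, against acute values of -0.87, -0.84 and -1.31. The difference between the arms was not tested, and the extraction kit differed with the duration.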

How the results depend on the processing

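Against 222 genes (130 higher, 92 lower), DESeq2 called 432 (232 higher, 200 lower). There were 346 with limma-voom (170 lower) and 96 with only the 12 libraries (55 higher, 41 lower). Without L19A and L36A there were 323, with 172 lower, so that more genes were lower than higher. Leaving out 1 mouse at a time gave 135 to 323 genes, 75 to 184 higher and 52 to 139 lower, with 138 without L8A, 138 without L26A, 135 without L32A, 137 without L25A and 323 without L7A (139 lower). RLE factors, both filters and sets of mouse numbers stayed within 1.5 times. Of the 222 genes, 214 were tested with only the 12 libraries and 210 under the stricter filter, and all 222 in the other fits. Every gene tested kept its sign. Of the 222, 220 were called with RLE factors, 222 with DESeq2, 197 with limma-voom, 152 with no filter and 87 with only the 12 libraries. For CORT+ENZA against ENZA, DESeq2 called 461 in place of 248, limma-voom 603 and the fit with no filter 156 (genes called in acute CORT+ENZA against acute ENZA). With 1 mouse left out there were 118 to 253: 118 without L12A, 142 without L6A, 126 without L17A, 157 without L29A, 133 without L35A and 145 without L5A. The chronic count and the interaction count of 0 stayed within 1.5 times or at 0. Over the named genes, 442 values stayed on their side of the threshold under an alternative, 58 lost the call and 18 gained it. With 1 mouse left out these numbers were 637, 136 and 7. The cause of these shifts was not tested. The promoter count for genes called higher was 21 with the single arm AGAACA, 0 with the full palindrome and 4 with the core palindrome, which was added after seeing the data. For genes called lower these counts were 16, 0 and 0. Among the genes of the report, the calls lost with no filter were those of Ces4a, Scara5, Mfsd2a, Samd4, Shroom3, Acot4, Adcy6, Serpina6, Phka2, Angptl4, Cd163, Serpina4-ps1 and AC154912.1, with limma-voom those of Ces4a, Adcy6, Serpina6 and Serpina4-ps1, and without L19A and L36A those of Adcy6, Serpina6, Phka2, H2-Ob, Cd163, Serpina4-ps1 and AC154912.1. The groups compared within an arm share no mouse number, so no mouse could be paired with itself. In the acute arm, each set of neighbouring mouse numbers held a mouse of every group. These sets as a covariate gave 286 genes, 205 of them among the 222, and lost the calls of Adcy6, Serpina4-ps1, Gm23935 and Mir6236.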

Other observations

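Genes on none of the lists made up 116 of the 130 called higher and 73 of the 92 called lower. The lists held 728 of the 13733 genes tested. Those named here were chosen after their values were seen. Tns1, which encodes tensin 1 of focal adhesions, rose by 0.74 ± 0.10 (319.9 ± 48.9 CPM in CORT and 191 ± 27.9 CPM in vehicle livers, mean ± SD, n = 6 each, adjusted p = 0.000246). Hopx, a homeodomain cofactor gene, rose by 0.82 ± 0.11 (adjusted p = 0.000246), and St3gal5, the gene of the sialyltransferase that makes ganglioside GM3, by 0.77 ± 0.14 (adjusted p = 0.0044). Fmo5, a flavin monooxygenase gene, and Sult1d1, a sulfotransferase gene, rose by 0.75 ± 0.18 and 0.89 ± 0.20 (adjusted p = 0.0252 and 0.0182). All 5 were also called higher with CORT in the chronic arm, with log2 fold changes of 0.78, 0.89, 1.56, 1.52 and 1.21. Trp53inp2, which encodes an autophagy factor, rose by 0.59 ± 0.11 (adjusted p = 0.00393).

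Among the falls, Sort1, the gene of the sorting receptor sortilin, fell by 0.51 ± 0.10 (19.5 ± 2.56 CPM in CORT and 27.9 ± 2.84 CPM in vehicle livers, adjusted p = 0.00595), with a chronic log2 fold change of -2.60 (adjusted p = 5.46e-08). Actn1, an actinin gene, fell by 0.37 ± 0.08 (adjusted p = 0.00992). Krt18, a keratin gene of hepatocytes, fell by 0.44 ± 0.10, and the tight junction genes Cldn3 and Marveld2 by 0.49 ± 0.11 and 0.61 ± 0.13 (adjusted p = 0.0211, 0.0153 and 0.0144). Nfe2l2, the gene of the antioxidant regulator NRF2, fell by 0.42 ± 0.11 (adjusted p = 0.0418, and 0.0892 without L19A). Hdac11, a histone deacetylase gene, and Zfpm1, a GATA cofactor gene, fell by 0.38 ± 0.08 and 0.45 ± 0.09 (adjusted p = 0.00794 and 0.00559).

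Gm23935, Mir6236 and CT010467.1, annotated as microRNA, microRNA and ribosomal RNA, had log2 fold changes of -1.41 ± 0.36, -1.63 ± 0.40 and -1.25 ± 0.30 (adjusted p = 0.045, 0.0346 and 0.0259) and none was called without L19A (adjusted p = 0.0855, 0.0505 and 0.0551) or with only the 12 libraries (adjusted p = 0.158, 0.15 and 0.127). With sets of neighbouring mouse numbers as a covariate, Gm23935 and Mir6236 were not called either (adjusted p = 0.128 and 0.0744). All of the 50-base stretches of Gm23935 and 48.6% of those of CT010467.1 occur in another gene, so their levels are uncertain.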
